A study of Mus musculus with 6 samples.

Results

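Ets1 and 9 other genes of the ETS family were followed in C1498 cells whose PARP-1 was inhibited and in control cells. The 10 genes were Ets1, Ets2, Fli1, Erg, Elf1, Elf4, Etv6, Spi1, Gabpa and Elk3. They are named by a fixed list that uses no measured value, although the list was drawn up with earlier results of these data known. Each had a probe set that the platform's gene table assigns to that gene only. Where a gene had several such probe sets, the one with the highest mean was used. They are 10 of 19938 genes measured in this way. C1498 is a mouse line of C57BL/6J background that the labels give as acute myeloid leukemia, and PJ34 blocks the enzyme PARP-1, which builds poly(ADP-ribose). Cells of the PJ34 group received 20 μM of it for 48 h, and cells of the PBS group received PBS for 48 h. Each group had 3 Affymetrix Mouse Gene ST arrays of total RNA. Both groups come from the same line. The study speaks of independent experiments for the arrays. The labels do not say whether the 3 arrays of a group came from separate cultures, and the p-values measure the spread between these arrays.

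ETS proteins are transcription factors that share a DNA-binding domain, the ETS domain, which recognises the core sequence GGAA. Members differ in the sequences next to that core, in the proteins they bind and in whether they activate or repress. In blood, different members are known for different lineages. Spi1 (PU.1) is needed for myeloid and B cells, and Fli1 and Erg for stem cells and megakaryocytes. Ets1 and Elf1 regulate genes of T and B lymphocytes. Many are switched by phosphorylation through the Ras-ERK pathway, and several form complexes with Runx1, Srf or AP-1.

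Starts of transcription were available from RefSeq (GRCm38.p6) for 7 of the 10 genes, with 11 start sites between them. Sequences for Ets1, Fli1 and Spi1 were not analysed here. The windows of Elf1 and Elf4 are shown because both genes lay higher on every PJ34 array, and the window of Gabpa because its ratio between the groups was close to 1. Each runs from 250 bases before to 50 bases after the outermost annotated start, 5′ to 3′ on the strand of the gene, and capitals mark every GGAA core on either strand, so that TTCC is the core on the opposite strand. The window of Elf1 is chr14:79480944-79481243 (plus strand), that of Elf4 is chrX:48463083-48463382 (minus strand) and that of Gabpa is chr16:84834874-84835173 (plus strand).
Elf1: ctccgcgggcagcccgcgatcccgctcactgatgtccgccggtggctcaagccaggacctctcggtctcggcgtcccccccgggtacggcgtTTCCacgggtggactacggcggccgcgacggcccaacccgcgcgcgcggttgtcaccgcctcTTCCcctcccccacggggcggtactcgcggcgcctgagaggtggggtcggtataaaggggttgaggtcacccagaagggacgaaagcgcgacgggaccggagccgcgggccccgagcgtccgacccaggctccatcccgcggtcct
Elf4: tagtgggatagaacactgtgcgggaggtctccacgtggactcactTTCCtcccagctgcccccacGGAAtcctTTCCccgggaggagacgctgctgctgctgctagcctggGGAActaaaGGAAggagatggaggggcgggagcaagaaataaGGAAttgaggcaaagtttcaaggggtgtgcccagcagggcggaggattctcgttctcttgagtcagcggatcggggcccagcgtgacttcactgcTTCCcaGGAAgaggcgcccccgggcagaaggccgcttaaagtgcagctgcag
Gabpa: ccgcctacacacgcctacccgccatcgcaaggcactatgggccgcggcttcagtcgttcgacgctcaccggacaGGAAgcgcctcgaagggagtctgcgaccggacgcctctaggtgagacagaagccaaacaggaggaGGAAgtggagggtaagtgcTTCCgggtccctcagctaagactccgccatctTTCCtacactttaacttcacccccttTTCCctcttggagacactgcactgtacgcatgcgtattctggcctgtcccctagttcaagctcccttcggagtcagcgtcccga

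The Elf4 window held 8 GGAA cores, 5 on the strand of the gene and 3 on the other. Of all 32851 promoter windows of this length 3.72% held at least 8. Gabpa had 5 cores, and 28.6% of windows had at least as many. Elf1 had 2, and 84.6% of windows had at least as many. Among the outermost windows not shown, that of Etv6 held 6 cores, and 15.7% of windows had at least as many. Elk3 had 2, and Ets2 and Erg had 1 each. These 4 genes overlapped between the groups. A link between the number of cores and expression was not tested. A second annotated start of Elf4 had 2 cores and a second start of Elf1 had 1. At least 1 core was present in 96.0% of all windows, so that its presence alone does not set a gene apart. The longer site GAGGAAGT, searched on both strands, occurred once in the window of Gabpa and in 3.2% of all windows. CCGGAAGT occurred in 3.89% of all windows and in none of the 11 start sites of these genes. GGAA lies within both longer sites. These matches are letters in a window and not measured binding.

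Ets1, Fli1, Elf1 and Elf4 were higher on all 3 PJ34 arrays than on any PBS array, and none of the 4 passed the adjusted test. Their folds, PJ34 over PBS, were 1.48, 1.20, 1.22 and 1.19. Ets2, Erg, Etv6, Spi1, Gabpa and Elk3 overlapped between the groups. At an adjusted p under 0.05 from limma, 0 of the 10 genes were called higher and 0 lower, beside 1.72% and 1.34% of the 23410 probe sets tested. An unadjusted p under 0.05 from limma was reached by 4 of the 10, and the methods' t-test called 0 after adjustment. The share of all probe sets at that unadjusted level was not counted. Such p-values were common on these arrays, since a probe set with an unadjusted p of 0.0409 from limma had an adjusted p of 0.270. The 4 of the 10 and the unadjusted counts of the lists below therefore stand without a comparison. All PJ34 values lay above all PBS values for 4 of the 10 genes and below them for 0. Among all probe sets tested the shares were 12.6% and 10.9%. Of the 10 genes, 8 lay above the median level of all probe sets, 4.42 on the log2 scale, and in probe sets above that level the shares were 18.5% and 16.2%, with 2.82% called higher. A two-sided exact permutation test with 3 arrays a group cannot go below p = 0.1, the value that each of the 4 genes reached. The median log2 fold change was 0.10 for the 10 genes and 0.00 for all probe sets tested. Levels below are log2 expression values as deposited. They are compared between arrays for a gene and not between genes. The median level of all probe sets serves only as a rough mark of a dim signal, since probe sets differ in brightness for the same amount of RNA. In such bulk samples fewer cells of a type and less RNA per cell cannot be told apart.

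**Figure D1:**
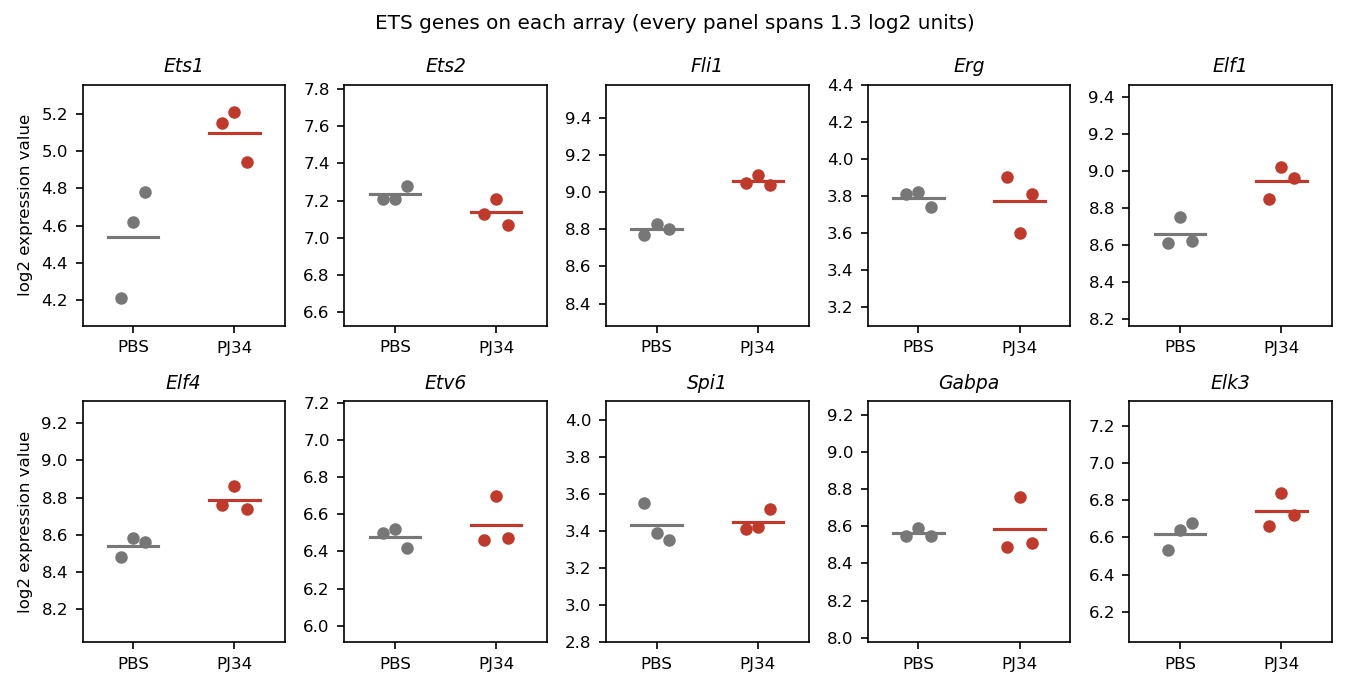
Log2 expression value (vertical axis) of each of the 10 ETS genes with 1 point per array, grey for PBS and red for PJ34, and bars at the group means. Every panel spans 1.3 log2 units. The groups are apart for Ets1, Fli1, Elf1 and Elf4, the PBS arrays are most spread for Ets1, and the other 6 panels overlap.

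Ets1 is the founding member of the family, a transcriptional activator of T cells, B cells, NK cells and endothelium. On the PBS arrays its values (probe set 10584142) were 4.21, 4.62 and 4.78, and on the PJ34 arrays 5.15, 5.21 and 4.94. The lowest PJ34 value lay 0.155 above the highest PBS value. PBS replicate 1 was the lowest array, and the SD was 0.294 in the PBS group and 0.144 in the PJ34 group. The mean was 4.54 with PBS and 5.10 with PJ34, which is a difference of 0.56 on the log2 scale (SE 0.14) and did not pass (adjusted p = 0.0777 from limma). The change was 1.48-fold with a 95% confidence interval of 1.18 to 1.85. Only 0.790% of the probe sets tested had a larger absolute change. Without PBS replicate 1 the log2 fold change was 0.40, and over all 6 fits that left out 1 array it lay between 0.40 and 0.68. The mean level of Ets1 lay 0.40 above the median of all probe sets, so an unknown part of the signal may be background. The study had picked Ets1 for qRT-PCR with these arrays in hand, so its direction here is not independent of that choice. It reports that qRT-PCR of the genes it picked gave results similar to the arrays, without a value for Ets1 in its text.

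Ets2 is the closest relative of Ets1 and a nuclear target of the Ras-ERK pathway. Its values were 7.21, 7.21 and 7.28 with PBS and 7.13, 7.21 and 7.07 with PJ34, so that the groups met at 7.21. The ratio was 0.936 (95% confidence interval 0.844 to 1.04, adjusted p = 0.535 from limma). In each array the log2 value of Ets1 minus that of Ets2 was computed, and its mean went from -2.70 with PBS to -2.04 with PJ34. The difference of 0.66 (SE 0.163) was the largest among the 9 genes set against Ets1 (exact permutation p = 0.1, adjusted p = 0.18 over 9 comparisons).

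Fli1 and Erg are a pair of near relatives that maintain blood stem cells and drive megakaryocyte genes. Fli1 (probe set 10592067) measured 8.77, 8.83 and 8.80 on the PBS arrays and 9.05, 9.09 and 9.04 on the PJ34 arrays. The groups were 0.211 apart, and the arrays of a group lay close together (SD 0.0299 and 0.0268). The log2 fold change was 0.26 (SE 0.059, adjusted p = 0.0559 from limma), or 1.20-fold with a 95% confidence interval of 1.09 to 1.32. This was the lowest adjusted p of the 10 genes, and it did not pass. With the methods' t-test the adjusted p of Fli1 was 0.0503. Erg lay below the median level of all probe sets, at 3.81, 3.82 and 3.74 with PBS and 3.90, 3.60 and 3.81 with PJ34. The PJ34 arrays of Erg enclosed the PBS arrays, and the ratio was 0.987 (95% confidence interval 0.862 to 1.13, adjusted p = 0.945 from limma).

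In the RefSeq order of protein-coding genes, Fli1 and Ets1 stand next to each other with 0 genes between, and so do Erg and Ets2. The potassium channel genes Kcnj1 and Kcnj5 lie beside Fli1, and their relatives Kcnj6 and Kcnj15 beside Erg. Both members of the first pair were higher on every PJ34 array, and neither member of the second was. The 5 genes on the Fli1 side, Kcnj1 and Kcnj5 among them, overlapped between the groups, with log2 fold changes from -0.15 to 0.09. On the other side Kirrel3, the gene next to Ets1, overlapped too (-0.13), and St3gal4 after it was lower on every PJ34 array (-0.25, adjusted p = 0.161 from limma). Dcps, an mRNA decapping enzyme 3 genes from Ets1, fell by 0.40 on the log2 scale (adjusted p = 0.0235 from limma) and was named here after its value was seen. Of the 6 fits that left out 1 array, it passed only in the fit without PBS replicate 1. Around Erg and Ets2, Dyrk1a, Brwd1 and Hmgn1 were higher on every PJ34 array (0.15, 0.12 and 0.12). Ttc3 was lower on every PJ34 array (-0.1), and none of these passed. Among all probe sets tested 12.6% were higher on every PJ34 array and 10.9% lower. In probe sets above the median level, where Dyrk1a, Brwd1, Hmgn1, Ttc3, St3gal4 and Dcps lay, the shares were 18.5% and 16.2%.

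Elf1 and Elf4 (MEF) form another branch of the family and act in T and NK cells. Elf1 (probe set 10416657) read 8.61, 8.75 and 8.62 with PBS and 8.85, 9.02 and 8.96 with PJ34. All 3 PJ34 arrays were higher, the nearest pair being 0.101 apart. The log2 fold change was 0.28 (SE 0.073, adjusted p = 0.0832 from limma), 1.22-fold with a 95% confidence interval of 1.08 to 1.37. Elf4 (probe set 10604393) read 8.48, 8.58 and 8.56 with PBS and 8.76, 8.86 and 8.74 with PJ34. Again the groups were apart, by 0.157. Its log2 fold change was 0.25 (SE 0.065, adjusted p = 0.0926 from limma), 1.19-fold with a 95% confidence interval of 1.07 to 1.31. A second probe set of Elf4, at a mean of 3.87 with PBS and 3.95 with PJ34 and thus below the median level, overlapped between the groups (log2 fold change 0.08, SE 0.092). Averaging both probe sets gave 0.16.

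Etv6 (TEL) is a transcriptional repressor that acts in blood stem cells and a frequent fusion partner in leukemia. Its values were 6.50, 6.52 and 6.42 with PBS and 6.46, 6.70 and 6.47 with PJ34. PJ34 replicate 2 stood above the other 5 arrays, which were mixed. The ratio was 1.05 (95% confidence interval 0.920 to 1.19, adjusted p = 0.764 from limma).

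Spi1, the myeloid factor, lay 0.98 below the median level of all probe sets. It read 3.55, 3.39 and 3.35 with PBS and 3.41, 3.42 and 3.52 with PJ34, and the highest value of all was in the PBS group. The ratio was 1.01 (95% confidence interval 0.899 to 1.14, adjusted p = 0.935 from limma). At this level an unknown share of the signal is background, and a difference in Spi1 may not have been detectable.

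Gabpa is the DNA-binding subunit of GABP, which serves many housekeeping and mitochondrial genes. It measured 8.55, 8.59 and 8.55 with PBS and 8.49, 8.76 and 8.51 with PJ34. PJ34 replicate 2 was the highest array for Gabpa, as it was for Etv6, and the other 2 PJ34 arrays were the lowest. The ratio was 1.02 (95% confidence interval 0.891 to 1.16, adjusted p = 0.931 from limma).

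Elk3 (Net) is a ternary complex factor, a partner of Srf that represses its targets until ERK phosphorylates it. The arrays gave 6.53, 6.64 and 6.68 with PBS and 6.66, 6.84 and 6.72 with PJ34. PJ34 replicate 1 lay just below PBS replicate 3, so that the groups overlapped narrowly, and the ratio was 1.09 (95% confidence interval 0.971 to 1.23, adjusted p = 0.456 from limma).

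Whether Ets1 changed by another amount than its relatives was tested on the difference of log2 values within each array. Against Ets2, Erg, Etv6, Gabpa and Elk3 these differences did not overlap between PBS and PJ34 arrays, with changes of 0.66, 0.58, 0.50, 0.54 and 0.44. Each reached the exact permutation p of 0.1 that is the smallest possible, with an adjusted p of 0.18. Against Fli1, Elf1 and Elf4 the differences were 0.30, 0.28 and 0.32, and against Spi1 0.54. Those 4 overlapped (exact permutation p = 0.2, adjusted p = 0.2). The design thus cannot show by this test that Ets1 differed from any of the 9.

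The calls on Ets1, Fli1, Elf1 and Elf4 depended on the setting. Letting the prior variance follow intensity, with robust eBayes, took all 4 past the threshold, with an adjusted p from limma of 0.0149, 0.00364, 0.00821 and 0.0116, and the other 6 genes did not, in a setting that called 4.31% of probe sets higher. Leaving out probe sets at or below the median level also brought all 4 past the threshold (adjusted p = 0.0293, 0.0127, 0.0251 and 0.0262), with 7.02% of the remaining probe sets called higher. In the other 12 fits, the one reported above included, none of the 4 passed. The highest adjusted p over these fits was 0.287 for Ets1, 0.182 for Fli1, 0.248 for Elf1 and 0.245 for Elf4, and the direction was the same in all.

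**Figure D2:**
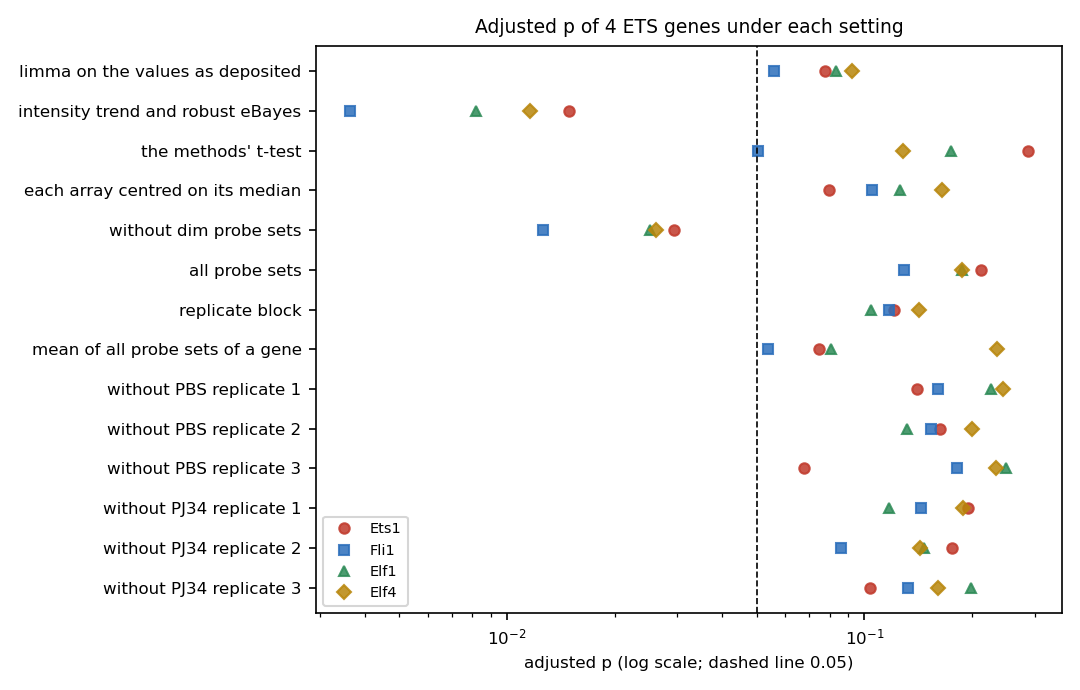
Adjusted p (horizontal axis, log scale) of Ets1, Fli1, Elf1 and Elf4 in 14 fits, 1 row per fit, with a dashed line at 0.05. All 4 genes lie left of the line with an intensity trend and robust eBayes and without dim probe sets, and right of it elsewhere, Fli1 lying almost on it at 0.0503 with the methods' t-test.

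Over the 6 arrays, Elf4 followed Ets1 most closely among the genes described (Pearson r = 0.926), then Fli1 (0.884), Elk3 (0.854) and Elf1 (0.801). Etv6 (0.332), Gabpa (0.278) and Ets2 (-0.351) followed it less, and Erg and Spi1, which lay below the median level, were not compared. Part of each value is the shared difference between the groups. With the group means removed r was 0.759 for Elf4, 0.706 for Elk3, 0.683 for Fli1, 0.649 for Ets2, 0.311 for Gabpa, 0.212 for Elf1 and 0.060 for Etv6, so that the sign for Ets2 turned and Elf1 fell below Ets2 and Gabpa. Among 10720 other genes above the median level, the 5 most like Ets1 were Rbm45, Dgkd, Ncbp2, Ubqln1 and Dpysl2, with r from 0.991 to 0.996 over 6 arrays. Rbm45 is an RNA-binding protein, Dgkd a diacylglycerol kinase, Ncbp2 the small subunit of the nuclear cap-binding complex, Ubqln1 a ubiquilin and Dpysl2 a cytoskeletal protein of neurites. Their log2 fold changes were 0.14 to 0.25, and none passed the test. With 6 arrays r was over 0.9 for 634 of the candidates, so that a high value does not by itself set a gene apart.

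Of 17 other ETS genes listed 16 were measured, and 0 were called in either direction (1 had an unadjusted p under 0.05 from limma, and the methods' t-test called 0 after adjustment). Fev was not analysed here. Their median log2 fold change was -0.02. Etv3, a repressor that slows proliferation in macrophages, came nearest, at 7.37, 7.44 and 7.55 with PBS and 7.81, 7.78 and 7.70 with PJ34. Its groups were apart by 0.150, and the log2 fold change was 0.31 (SE 0.071), which did not pass (adjusted p = 0.0584 from limma). Like Ets1, Fli1, Elf1 and Elf4, it passed with the intensity trend and without dim probe sets (adjusted p = 0.00766 and 0.0159) and in no other fit. Elf2, a relative of Elf1, and the repressor Erf were also higher on all PJ34 arrays, by gaps of 0.0111 and 0.00903 and log2 fold changes of 0.11 each. Of all 26 ETS genes measured, 7 had all PJ34 values on top and 0 had them below, beside 12.6% and 10.9% of all probe sets. Of these 26 genes 17 lay above the median level, where the shares were 18.5% and 16.2%. Of the ternary complex factors, Elk1 (-0.02) and Elk4 (0.07) overlapped as Elk3 did. Etv5, with 2 probe sets, gave 0.03 at the brighter one and 0.22 at the other, and neither passed. Etv1, Etv2, Elf3, Elf5, Ehf, Spib and Spic, members of epithelial, endothelial, neural or B cell and macrophage lineages, lay below the median level.

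**Figure D3:**
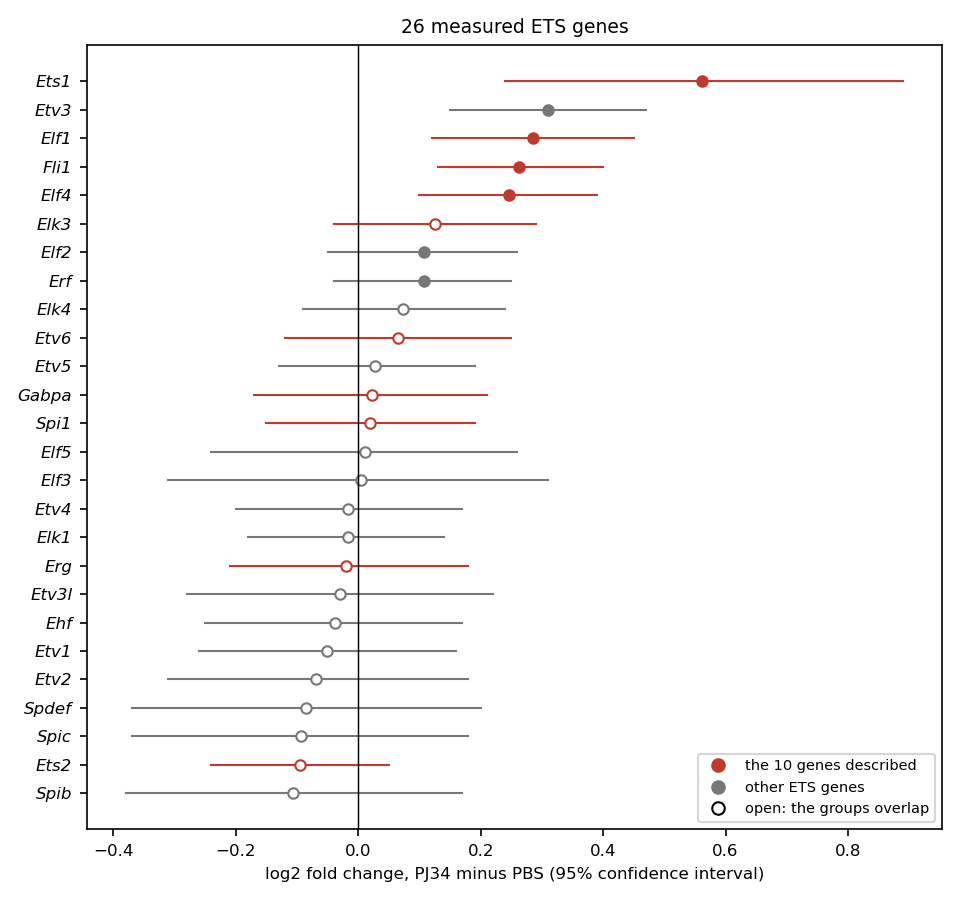
Log2 fold change of PJ34 over PBS (horizontal axis) with its 95% confidence interval from limma for the 26 measured ETS genes, in order of size. Red marks the 10 genes described, grey the others, and open points are genes whose groups overlap. The intervals of Ets1, Etv3, Elf1, Fli1 and Elf4 lie above 0, and that of Ets1, at 0.56, is the widest of these 5.

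Among partners and cofactors of ETS proteins 21 of 23 were measured, of which 0 rose and 1 fell, beside 1.72% and 1.34% of all probe sets. This was Lyl1, a basic helix-loop-helix factor that works beside Fli1 and Erg in stem cells (log2 fold change -0.44, SE 0.077, adjusted p = 0.0223 from limma). That call held in 2 of the 6 fits that left out 1 array. It was lost without any 1 PBS array and without PJ34 replicate 1. The call was also lost with a replicate block and over all probe sets (adjusted p = 0.056 and 0.088 from limma). By the methods' t-test 0 of the 21 passed after adjustment. Runx1, which binds DNA jointly with Ets1, had all PJ34 values on top and a log2 fold change of 0.25 (adjusted p = 0.0772 from limma). For the coactivator Crebbp the value was 0.24 (adjusted p = 0.0900). Both passed with the intensity trend and without dim probe sets. Of probe sets above the median level, 18.5% had all PJ34 values on top. For Srf the log2 fold change was 0.02. The GABP beta subunits Gabpb1 and Gabpb2 had -0.07 and 0.03, beside 0.02 for Gabpa.

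Enzymes that modify ETS proteins were not called in the fit reported here, and some of them passed in others. Of 17 measured of 22 in the Ras-ERK and calcium group, 0 were called (3 had an unadjusted p under 0.05 from limma, and the methods' t-test called 0 after adjustment), and their median log2 fold change was 0.07. The kinase Camk2d, of a family that phosphorylates Ets1 and weakens its DNA binding, came nearest (0.28, adjusted p = 0.0579 from limma) and was named after its value was seen. It passed with the intensity trend and without dim probe sets (adjusted p = 0.00593 and 0.0143). Of 7 measured of 9 ubiquitin and SUMO enzymes, 0 were called (4 at an unadjusted p under 0.05 from limma, and 0 by the methods' t-test after adjustment). The unadjusted counts of both lists have no share of all probe sets beside them. Cop1 and Det1, parts of a ubiquitin ligase that degrades ETS proteins, were lower on every PJ34 array, by log2 values of -0.25 and -0.27 (adjusted p = 0.172 and 0.112 from limma), and Cul4a, the scaffold of that ligase, and Sumo2, a SUMO protein, were higher on every PJ34 array, by 0.23 and 0.15 (adjusted p = 0.200 and 0.256 from limma). All 4 were named after their values were seen. Of probe sets above the median level, 16.2% were lower on every PJ34 array and 18.5% were higher. Det1 passed with the intensity trend and without dim probe sets (adjusted p = 0.0472 and 0.0375), and Cop1 with the trend and without PJ34 replicate 2 (adjusted p = 0.0380 and 0.0452).

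Genes known as ETS targets were counted by the member that is known to bind them, beside 1.72% of all probe sets called higher and 1.34% called lower. Among 11 targets of ternary complex factors and Srf, 5 rose and 0 fell, Fos by 1.16, Egr1 by 0.92, Nr4a1 by 0.77, Egr2 by 0.54 and Fosb by 0.46 on the log2 scale, and their median was 0.39. All 5 are transcription factors of the immediate early response. By the methods' t-test only Nr4a1 of the 11 passed after adjustment (adjusted p = 0.0370), and Fos, Egr1, Egr2 and Fosb did not (0.0503, 0.0719, 0.109 and 0.111). With 1 array left out, the call of Fosb was lost for PBS replicates 1 and 3 and PJ34 replicates 1 and 2, and that of Egr2 for PBS replicates 1 and 3 and PJ34 replicate 3. The target lists, like all lists here, were drawn up with earlier results of these data known. Their counts and medians are thus not independent of these arrays. The study also named Fos and Il2 on these arrays, so their directions are not independent of that choice either. Lymphocyte targets of Ets1 and Elf1 gave 4 rises and 0 falls among 17 measured of 18. These were the cytokine Il2 (1.12, SE 0.081), the receptor Il7r (0.94, SE 0.13), the growth factor Csf2 (0.63) and the coreceptor Cd4 (0.62), the last 3 below the median level of all probe sets. By the methods' t-test Il2 and Cd4 passed after adjustment (adjusted p = 0.0447 and 0.0357), and Il7r and Csf2 did not (0.123 and 0.110). The last pair also missed the threshold in the fit over all probe sets (adjusted p = 0.0600 and 0.0589 from limma). The median of that list was 0.07. Ighm, the heavy chain of IgM, had 3 probe sets that disagreed. The one with the highest mean gave a log2 fold change of -0.03 and another 0.06, and neither passed. The third, probe set 10403069, which the study named on these arrays, was at 2.59, 3.39 and 2.83 with PBS and 4.68, 4.54 and 4.59 with PJ34. There the log2 fold change was 1.67 (SE 0.176, adjusted p = 0.00293 from limma), with a mean level below the median of all probe sets. Cd3e, at a log2 fold change of 0.18, and Cd3g, at -0.05, did not pass.

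For the myeloid targets of Spi1, 2 of 27 measured of 29 rose, the Fc receptor Fcgr1 (0.63, SE 0.073) and the lysosomal protein Cd68 (0.51, SE 0.097), and 0 fell, with a median of 0.07. When arrays were left out 1 at a time, Cd68 passed in 0 of 6 fits and Fcgr1 in 6. Of 13 measured of 17 megakaryocyte and endothelial targets of Fli1, Erg and Ets1, the chemokine Ppbp rose (0.30, SE 0.060) and the TGF-beta coreceptor Eng fell (-0.34, SE 0.065). Ppbp passed in 0 of those 6 fits and Eng in 1, that without PJ34 replicate 2. The mean level of Ppbp was not above the median of all probe sets. Ppbp also missed the threshold with the intensity trend and with centring (adjusted p = 0.0524 and 0.0562 from limma). Of 10 measured of 11 joint targets of ETS proteins and AP-1, Hmox1, the heme oxygenase, fell (-0.63, SE 0.066) and 0 rose. After adjustment the methods' t-test called 0 of the Spi1 targets and 0 of the targets of Fli1, Erg and Ets1, and of the joint targets it called Hmox1 alone. None of 12 targets of Gabpa was called (2 at an unadjusted p under 0.05 from limma, and 0 by the methods' t-test after adjustment), and their median was -0.04.

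**Figure D4:**
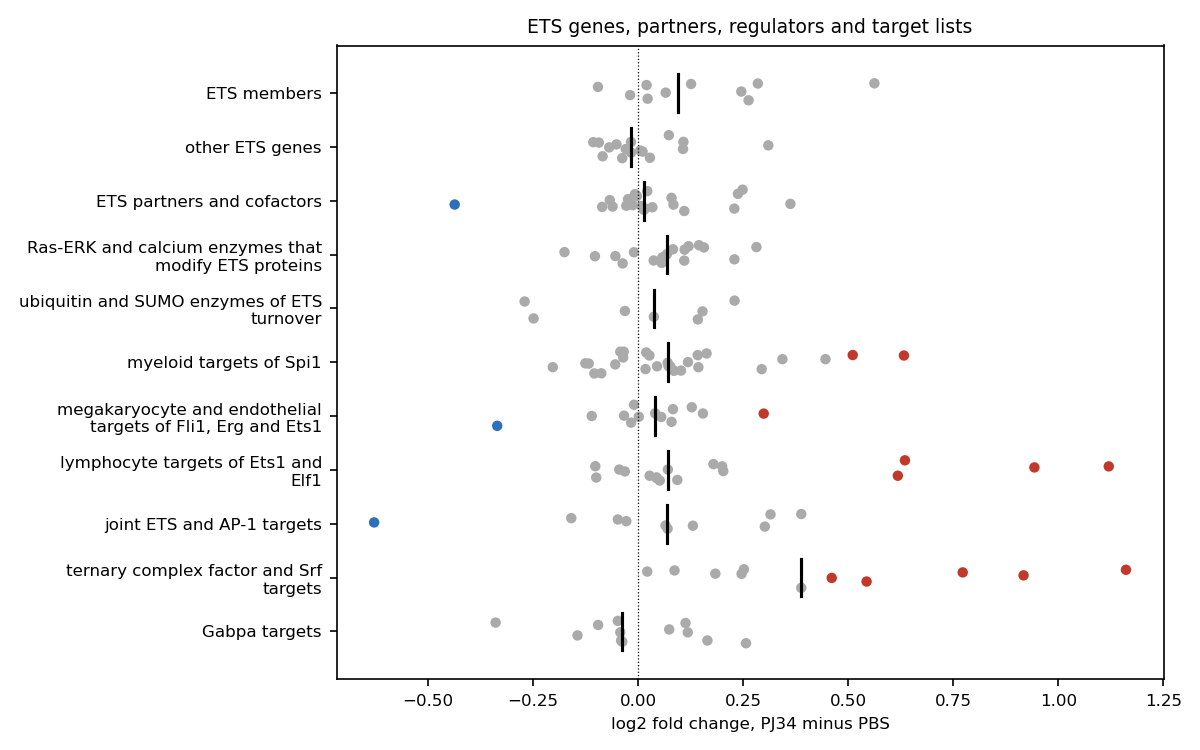
Each point is a measured gene, placed by its log2 fold change of PJ34 over PBS (horizontal axis), with the 10 ETS genes in the top row and 10 related lists below. Points in red rose and points in blue fell at an adjusted p under 0.05 from limma, those in grey passed in neither direction, and medians are drawn as black bars. The median is 0.39 for the ternary complex factor and Srf targets and lies between -0.04 and 0.10 for every other row. All lists were drawn up with earlier results of these data known.

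The label of the line was compared with marker genes. Of 14 myeloid markers, 4 lay above the median level of all probe sets (Cebpa, Cebpe, Cd68 and Fcgr1), and Mpo, Elane, Lyz2, Csf1r, Cd14 and Ly6g lay below it. Of 12 T cell markers, 5 lay above it, Cd3e and Cd3g among them, and the rest, such as Cd4, did not. Of 9 NK cell markers 4 lay above it. The other lists had 0 of 7 B cell, 2 of 6 megakaryocyte, 1 of 4 erythroid, 1 of 7 endothelial and 3 of 7 fibroblast markers above it. The mean level of the T cell markers was 5.78 to 5.83 on the PBS arrays and 5.81 to 5.90 on the PJ34 arrays, and that of the NK cell markers was 4.32 to 4.39 and 4.45 to 4.53. For the myeloid markers it was 3.77 to 3.82 and 3.87 to 4.0. Called higher were the myeloid markers Cd68 and Fcgr1, the T cell marker Cd4 and the megakaryocyte marker Ppbp, as given above. They were 2 of 14, 1 of 12 and 1 of 6, beside 1.72% of all probe sets. Of the NK cell markers the protease Gzma rose (0.90, SE 0.14), a call lost on leaving out PBS replicate 2, PBS replicate 3, PJ34 replicate 1 or PJ34 replicate 2. Its mean level was not above the median of all probe sets. Gzma also missed the threshold with the methods' t-test (adjusted p = 0.146) and over all probe sets (adjusted p = 0.0781 from limma). The part of these markers in the values of Ets1, Fli1, Elf1 and Elf4 was not tested.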

How the data were processed

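Expression was measured in C1498 cells on 6 Affymetrix Mouse Gene ST arrays, 3 of cells given PJ34 and 3 of cells given PBS, grouped by the labels of the samples. The submitters' processing notes name RMA and Affymetrix Expression Console 1.3.1. The values deposited by the authors are on a log2 scale, 1 per probe set and array, after the background correction, quantile normalization and summarising that RMA performs. Genome build and detection calls are not given in the sources used here. The number of arrays limits the precision. Array medians were 4.41 to 4.46, and arrays correlated with each other at 0.992 to 0.995 in the same group and at 0.992 to 0.994 across the groups.

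The platform's gene table names 23410 of 35556 probe sets, 21789 by 1 gene and 1621 by several. All 23410 were compared, PJ34 minus PBS, with limma 3.58.1 in R 4.3.3 (lmFit and eBayes, no covariates), and p was adjusted by Benjamini-Hochberg over all of them, with calls at 0.05. The values were used as deposited. The scripts were tested on simulated data. Each listed gene was represented by its single-gene probe set with the highest mean of the 6 arrays. Promoter windows and gene order came from RefSeq (GRCm38.p6) and were searched with Python 3.11.15. The 10 genes and all lists were chosen with earlier results of these data known. The text names all 10 genes, up to 4 called genes of each list with the largest changes, Etv3 and Elf2 as the other ETS genes with the largest changes, and the 5 genes most like Ets1. Any other gene named, such as Fosb, Runx1 or Crebbp, was chosen after its value was seen. Alternatives were an intensity trend with robust eBayes, the methods' t-test, centring, dim probe sets left out, all probe sets, a replicate block, all probe sets of a gene averaged, and each array left out.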

Additional observations from a re-analysis of the deposited data

How the results depend on the processing

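Of 128 values of the 10 ETS genes under the alternatives, 120 stayed on the same side of the threshold. The other 8 passed, and they were Ets1, Fli1, Elf1 and Elf4 with an intensity trend and robust eBayes and without dim probe sets, so that 4 of the 10 genes were higher in each of these settings, where Ets1 had a log2 fold change of 0.56 (adjusted p = 0.0149 and 0.0293). The cause was not tested. Over all probe sets 402 were higher and 314 lower. The counts were 1008 and 920 with an intensity trend and robust eBayes, 891 and 776 without dim probe sets, 332 and 365 with each array centred on its median, 78 and 62 with the methods' t-test, and 112 and 76 over all 35556 probe sets. When each array was left out in turn, 143 to 281 were higher and 79 to 320 lower, with 0 of the 10 genes called in any of the 6 fits. The arrays share replicate numbers only. Deviations from the group mean correlated at -0.013, 0.131 and -0.009 between arrays of the same number. A replicate block gave 219 higher and 140 lower and an adjusted p of 0.121 for Ets1. The exact permutation test of Ets1 against a relative cannot go below p = 0.1 with 3 arrays a group, and no other test of that difference was run.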
